A study of Mus musculus with 15 samples.

Results

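The aminoacyl-tRNA synthetases, the enzymes that load each transfer RNA with its amino acid, were followed in mouse cells leaving the embryonic stem cell state with and without Atg7. Members were taken by gene symbol alone: the 1-letter code of the amino acid followed by "ars", with a final 2 for the mitochondrial enzyme, plus Farsa and Farsb, the subunits of cytosolic phenylalanyl-tRNA synthetase. The rule found 36 of the 24982 symbols, of which 19 were cytosolic and 17 mitochondrial, and all 36 had enough counts to be tested, among 15696 tested genes. Eprs, which encodes the joint glutamyl- and prolyl-tRNA synthetase, has a symbol outside the rule and is given below as a partner. The rule used no measured value.

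Polyadenylated RNA of the mouse stem cell line E14TG2 had been sequenced in 5 groups of 3 libraries. They follow the passage from the embryonic stem cell (ESC) state to that of epiblast-like cells. The groups were ESCs of control genotype at day 0, Atg7 KO and control cells at day 2, and Atg7 KO and control cells at day 4. ESCs had been kept on inactivated mouse embryonic fibroblasts with LIF, PD0325901 and CHIR99021, and the transition was made on fibronectin with Activin A, bFGF and Knockout Serum Replacement. Atg7 is the E1-like enzyme of autophagy, the pathway by which cells digest their own cytoplasm and recover amino acids, and the question was what its loss does during the transition. The labels do not say how many KO clones were used, nor that replicates were separate cultures, so p-values measure the spread between these libraries, which may be technical.

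Each synthetase joins an amino acid to its tRNA with the energy of ATP, so that the ribosome can read the codon. Cytosolic and mitochondrial translation use mostly separate enzymes, all encoded in the nucleus, but the Gars and Kars genes make both forms, and mitochondrial glutaminyl-tRNA is made by the amidotransferase GatCAB in place of a synthetase. Several cytosolic enzymes sit together in the multisynthetase complex, held by the scaffold proteins Aimp1, Aimp2 and Eef1e1. Many cytosolic synthetase genes are known targets of ATF4, the transcription factor that is made when translation is slowed by amino acid shortage or other stress and that also drives amino acid synthesis and transport. The ATF4 list used below holds 12 cytosolic members, which are Aars, Cars, Gars, Iars, Lars, Mars, Nars, Sars, Tars, Vars, Wars and Yars. The other 7 cytosolic members are Dars, Farsa, Farsb, Hars, Kars, Qars and Rars.

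ATF4 binds with C/EBP proteins to elements of the form TGATGNAA, so the RefSeq promoter windows (GRCm38.p6, 250 bases before to 50 after the start) were searched for these 8 letters on both strands. A window was at hand for 26 of the 36 members. Counted by member with a window, the motif was in 5 of the 7 on the ATF4 list. It was in 0 of the 5 other cytosolic and 0 of the 14 mitochondrial members, of which Aars2 had 2 windows. Among all 32817 promoter windows 3.97% held it. The stricter form TGATGCAA was in 4 of the 26, against 0.896% of all windows. The stretches below run from 130 bases before to 20 bases after the start, with the motif in capitals. The 5 with the motif are shown. These genes all rose in KO cells of day 4, but so did all 12 members of the ATF4 list, with or without the motif. The 5 genes did not move together throughout. In control cells of day 4 against day 2 Iars, Tars and Gars rose, Aars did not pass and Yars fell. Most matches lie on the strand opposite to the gene and so appear as the reverse complement. Kars and Qars are shown as cytosolic members without the motif.
Aars (chr8:111033712-111033861, + strand): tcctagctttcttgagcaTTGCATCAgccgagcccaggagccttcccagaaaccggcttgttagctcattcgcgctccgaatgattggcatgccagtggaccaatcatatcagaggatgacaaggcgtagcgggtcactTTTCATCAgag
Gars (chr6:55037871-55038020, + strand): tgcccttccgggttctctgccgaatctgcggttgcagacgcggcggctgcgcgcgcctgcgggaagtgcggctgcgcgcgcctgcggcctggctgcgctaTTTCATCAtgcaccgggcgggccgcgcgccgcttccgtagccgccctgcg
Iars (chr13:49682000-49682149, + strand): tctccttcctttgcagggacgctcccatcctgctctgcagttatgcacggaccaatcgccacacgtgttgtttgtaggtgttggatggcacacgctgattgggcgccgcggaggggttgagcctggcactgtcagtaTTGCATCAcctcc
Tars (chr15:11399639-11399788, - strand): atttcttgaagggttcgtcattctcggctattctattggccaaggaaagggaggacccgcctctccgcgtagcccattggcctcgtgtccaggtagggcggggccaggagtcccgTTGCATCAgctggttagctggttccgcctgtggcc
Yars (chr4:129189773-129189922, + strand): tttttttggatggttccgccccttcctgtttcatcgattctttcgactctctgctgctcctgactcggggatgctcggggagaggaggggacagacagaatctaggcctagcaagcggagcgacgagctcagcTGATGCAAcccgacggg
Kars (chr8:112011335-112011484, - strand): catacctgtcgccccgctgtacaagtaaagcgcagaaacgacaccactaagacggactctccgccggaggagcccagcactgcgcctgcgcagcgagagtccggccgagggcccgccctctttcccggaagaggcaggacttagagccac
Qars (chr9:108507875-108508024, + strand): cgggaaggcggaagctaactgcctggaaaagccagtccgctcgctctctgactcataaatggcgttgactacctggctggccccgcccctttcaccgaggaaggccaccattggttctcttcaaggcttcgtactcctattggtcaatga

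The first base of the motif lies 112 bases before the start in Aars (with a further match 10 bases into the transcript), 30 before it in Gars and 15 before it in Tars. In Iars and Yars it lies at transcribed bases 8 and 4. Mars and Sars, both on the ATF4 list, had a window without the motif and rose in KO cells of day 4 as well. A match is a description of these letters, and binding was not measured.

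Library totals lay between 14059237 and 23371546 counts, of which the 36 members took between 0.473% and 0.777%. Atg7 had 6.84, 7.53 and 7.11 CPM (counts scaled to library size) in KO libraries of day 2, against 14.6, 12.1 and 14 CPM in control libraries of day 2. At day 4 it had 12.6, 12.7 and 10.4 CPM in KO libraries, against 19.1, 19.9 and 19.4 CPM in control libraries. The transcript was lower in each KO library than in each control library of its day but still present, and which exons the KO removed is not given. The defining markers of pluripotent cells were present in all groups, with Pou5f1 between 433 and 1084 CPM as group means. Their levels were not alike in KO and control cells. By the test given below, 3 of 8 rose and 3 fell in KO cells of day 2, beside 20.4% and 21.4% of all tested genes. At day 4, 5 rose and 0 fell, beside 19.5% and 18.1%. Nanog averaged 1167 CPM in KO and 534 CPM in control cells of day 2, and Utf1 84.0 and 230 CPM. Fibroblast transcripts were present too. Col1a1, the collagen of feeder fibroblasts, averaged 292 ± 210 CPM in ESCs (SD, n = 3), 202 ± 58.8 in KO and 85.8 ± 5.93 in control cells of day 2, and 38.2 ± 3.42 in KO and 12.1 ± 1.00 in control cells of day 4. ESC replicate 3 stood apart from the other ESC libraries, with 88.2 CPM of Col1a1 against 507 and 281 CPM. Hprt, which is known to be inactive in E14TG2a cells, had between 183 and 203 CPM in ESC libraries and between 1.59 and 2.94 CPM in the 12 later libraries, so in comparisons with day 0 the day and the source of the cells cannot be told apart.

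Compared per kilobase of exon, cytosolic synthetase transcripts were more abundant than mitochondrial ones. Over the 15 libraries Gars, for glycine, stood highest at 150 CPM per kb, followed by Nars, for asparagine, at 102 CPM per kb and Kars, for lysine, at 91.5 CPM per kb. Farsa was the lowest of the cytosolic members at 21.2 CPM per kb. Among mitochondrial members Lars2, for leucine, was highest at 25.9 CPM per kb and Rars2, for arginine, next at 19.85 CPM per kb. Wars2, for tryptophan, and Mars2, for methionine, were lowest, at 1.30 and 1.33 CPM per kb. Iars, Farsb and Lars followed each other within 64.6 and 63.2 CPM per kb, with ranges over libraries that overlapped widely. The median level of a class at the start was 65.4 CPM per kb for cytosolic and 10.4 CPM per kb for mitochondrial members in ESCs. It was 42.5 and 8.98 CPM per kb in KO cells of day 2 against 38.3 and 7.12 in control cells of day 2, and 51.9 and 8.85 CPM per kb in KO cells of day 4 against 36.3 and 6.75 in control cells of day 4. In bulk RNA a lower level cannot be told apart from fewer cells that carry the transcript.

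**Figure D1:**
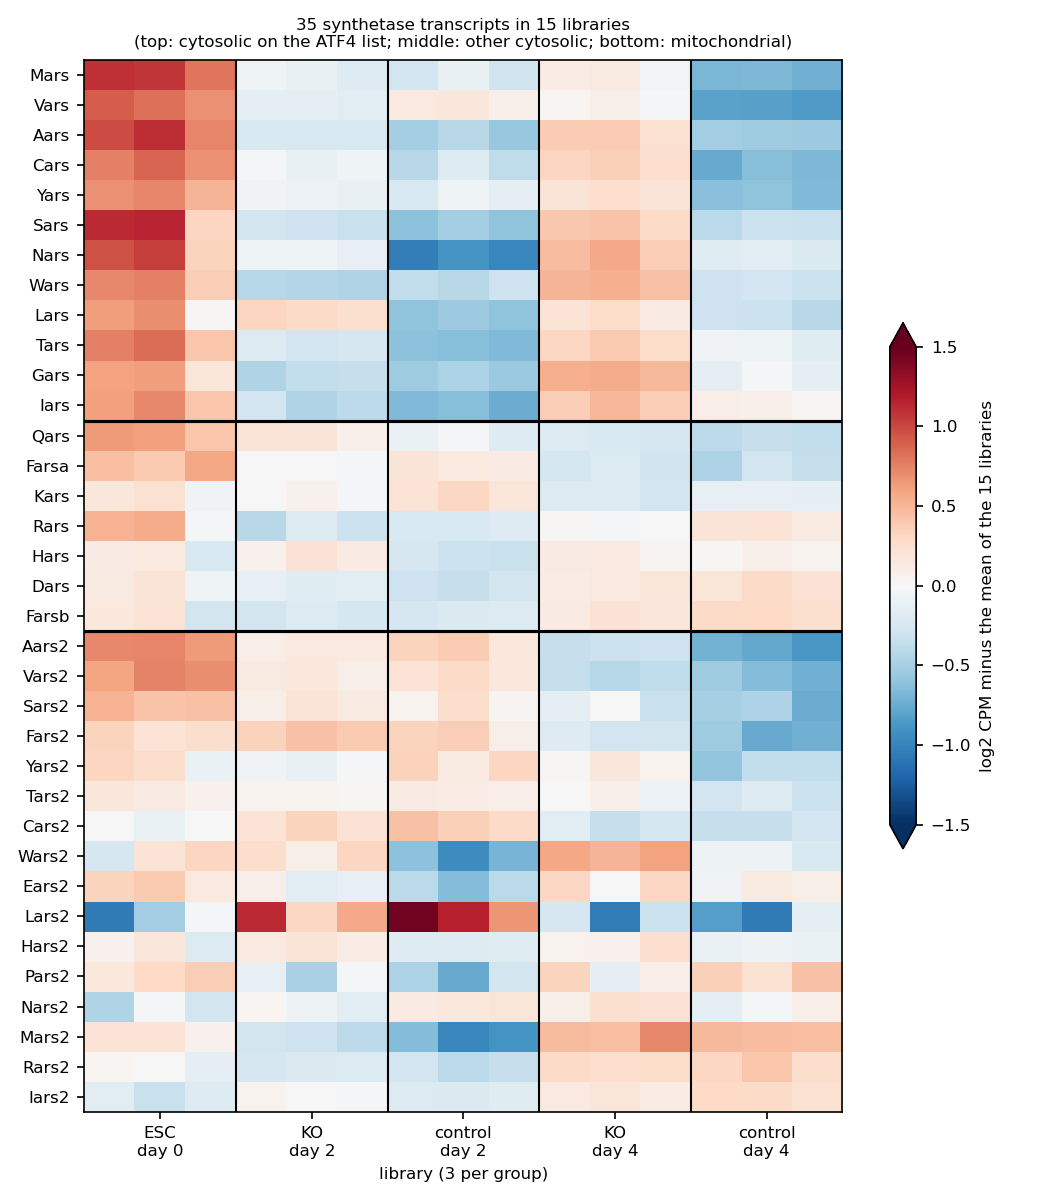
Heat map of 35 synthetase transcripts (rows) in the 15 libraries (columns, 3 per group). Color is log2 CPM minus the mean of that gene over the 15 libraries, capped at 1.5 either way. The 12 members of the ATF4 list are high in the ESC libraries and, in the KO libraries of day 4, above the control libraries of day 4, while the 16 mitochondrial members drawn show no single pattern.

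At day 4 all 12 synthetase transcripts on the ATF4 list were higher in KO than in control cells, while the rest were mixed. Of 36 members 19 rose and 1 fell in KO cells, where 19.5% of all tested genes rose and 18.1% fell (edgeR's quasi-likelihood test, Benjamini-Hochberg adjusted p under 0.05). Among the 19 cytosolic members 12 rose and 0 fell, with a median log2 fold change of 0.55, and among the 17 mitochondrial members 7 rose and 1 fell, with a median of 0.20. The median of all tested genes was -0.01. The 12 that rose were the 12 of the ATF4 list, with a median of 0.75 and a range of 0.35 to 1.00. The groups did not overlap for any of them, as held in this direction for 27.6% of all tested genes. The list was picked with earlier results of these data known, so its split from the other members carries no test. Of the other 7 cytosolic members 0 passed, with fold changes between -0.18 and 0.14 and a median of -0.08. With the collagen covariate described below, 1 of these 7 rose and 4 fell.

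Cars, which charges cysteine, showed the largest rise. It had 221, 227 and 211 CPM in KO libraries of day 4, against 105, 113 and 111 CPM in control libraries of day 4. The KO libraries stood together at 2.00-fold the control level, a log2 fold change of 1.00 ± 0.07 (SE, edgeR adjusted p = 3.66e-08). Aars, for alanine, had 632, 634 and 571 CPM in KO libraries, against 339, 337 and 335 CPM in control libraries. The lowest KO library was well above the highest control library (0.86 ± 0.07, edgeR adjusted p = 3.86e-07). Of the exon length of Aars 14.3% overlaps Exosc6 on the same strand, so its counts are uncertain. Vars, for valine, had 264, 275 and 255 CPM in KO libraries, against 149, 147 and 144 CPM in control libraries (0.85 ± 0.06). Yars, for tyrosine, had 198, 206 and 197 CPM in KO libraries, against 112, 113 and 109 CPM in control libraries (0.85 ± 0.06). The spread within each group was small beside the gap for both genes, with edgeR adjusted p of 3.66e-08 for Vars and 9.59e-08 for Yars.

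Wars, the cytosolic tryptophan enzyme, had 152, 154 and 144 CPM in KO libraries of day 4, against 85.7, 87.0 and 84.9 CPM in control libraries. Mars, for methionine, had 183, 185 and 164 CPM in KO libraries, against 105, 106 and 102 CPM in control libraries. KO replicate 3 was the lowest of the KO libraries for both genes and still stood above every control library. The log2 fold changes were 0.80 ± 0.08 for Wars (edgeR adjusted p = 1.27e-06) and 0.76 ± 0.08 for Mars (edgeR adjusted p = 2.11e-06). Part of the last exons of Mars, 68 bases, overlaps Ddit3 on the opposite strand, and Ddit3 rose too, by 1.17 ± 0.21. Whether counting used strand is not given, so shared reads cannot be assigned.

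Sars, for serine, had 240, 245 and 222.5 CPM in KO libraries of day 4, against 137, 146 and 145 CPM in control libraries. Nars had 557, 602 and 523 CPM in KO libraries, against 357, 360 and 350 CPM in control libraries. Gars had 651, 658 and 627 CPM in KO libraries, against 406, 437 and 407 CPM in control libraries. None of the 3 overlapped between groups, and their log2 fold changes were 0.73 ± 0.14, 0.66 ± 0.12 and 0.63 ± 0.08. Lars, Tars and Iars, for leucine, threonine and isoleucine, rose least within the list, by 0.55 ± 0.12, 0.43 ± 0.08 and 0.35 ± 0.07. Against a 1.5-fold change in place of no change, 5 of the 12 passed.

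Of the mitochondrial members, Wars2, the tryptophan enzyme, rose most. It had 11.0, 10.5 and 11.2 CPM in KO libraries of day 4, against 6.98, 6.97 and 6.30 CPM in control libraries, a log2 fold change of 0.69 ± 0.15 (edgeR adjusted p = 0.00178). Yars2, for mitochondrial tyrosine, had 29.2, 32.5 and 30.0 CPM in KO libraries, against 19.1, 22.3 and 22.4 CPM in control libraries (0.52 ± 0.11). Aars2, for mitochondrial alanine, had 41.8, 42.7 and 42.9 CPM in KO libraries, against 32.5, 31.4 and 29.1 CPM in control libraries (0.45 ± 0.07). These 3 did not overlap between groups, nor did Fars2 (0.42 ± 0.10), Sars2 (0.41 ± 0.10), Tars2 (0.26 ± 0.06) and Vars2 (0.24 ± 0.06), the other members that passed. The count of 1 fallen member became 0 on leaving out any 1 of the 6 libraries.

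**Figure D2:**
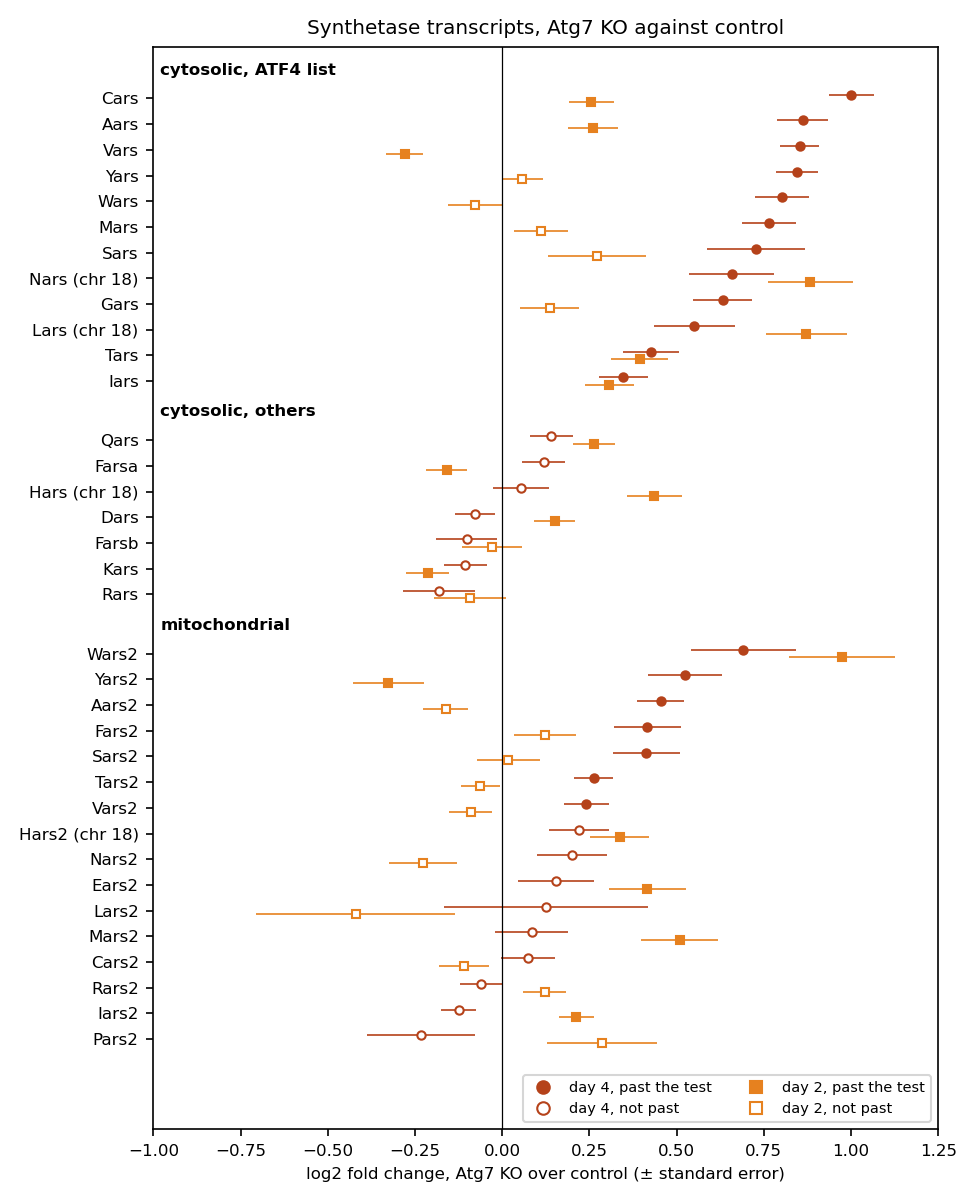
Log2 fold change of Atg7 KO over control cells for 35 members at day 4 (circles) and day 2 (squares), with bars of 1 standard error, n = 3 libraries per group. Filled marks passed the test; open marks did not. All 12 members of the ATF4 list lie right of 0 at day 4, and at day 2 they run from -0.28 to 0.88.

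At day 2 the KO effect was mixed. Of 36 members 15 rose and 4 fell in KO cells, where 20.4% of all tested genes rose and 21.4% fell, and the median over the members was 0.13 against -0.01 over all tested genes. Of the cytosolic members 9 rose and 3 fell, and of the mitochondrial members 6 rose and 1 fell. The ATF4 list was split, with 6 of 12 risen, 1 fallen and a median of 0.26. The largest rises were those of Wars2, Nars and Lars.

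Chromosome 18 as a whole read higher in KO than in control cells of day 2. The median over its 408 tested genes was a log2 fold change of 0.56, against 0.01 at day 4. In control cells that median was -0.12 for day 2 against day 0 and 0.35 for day 4 against day 2. In KO cells of day 4 against day 2 it was -0.17. Which group of day 2 departs was not tested. Nars, Lars, Hars and Hars2 lie on this chromosome, and all 4 rose in KO cells of day 2. Nars had 388, 389 and 373 CPM in KO libraries of day 2, against 198, 219 and 206 CPM in control libraries of day 2 (0.88 ± 0.12, edgeR adjusted p = 3.65e-05). Lars had 408, 398 and 385 CPM in KO libraries, against 215, 222 and 214 CPM in control libraries (0.87 ± 0.12, edgeR adjusted p = 2.7e-05). The fitted folds were 1.84 for Nars and 1.83 for Lars, with no overlap between groups, as held in this direction for 29.6% of all tested genes. Less the median of the chromosome, the differences were 0.32 for Nars and 0.31 for Lars. Hars, for cytosolic histidine, had 123, 138 and 129 CPM in KO libraries, against 99.6, 94.9 and 94.0 CPM in control libraries (0.44 ± 0.08). Hars2, its mitochondrial counterpart, had 38.4, 39.6 and 37.4 CPM in KO libraries, against 30.4, 30.4 and 30.6 CPM in control libraries (0.34 ± 0.08). These rises were smaller than the chromosome median, by 0.13 for Hars and by 0.23 for Hars2 on the log2 scale. The 2 genes share 195 exonic bases on opposite strands, so their counts are uncertain. The part of the chromosome in these rises was not tested; among the 32 members elsewhere 11 rose and 4 fell.

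Away from chromosome 18, Wars2 had 8.82, 7.82 and 9.21 CPM in KO libraries of day 2, against 4.80, 3.83 and 4.54 CPM in control libraries of day 2. This was the largest rise of all members, by 0.97 ± 0.15 (edgeR adjusted p = 0.000109). Mars2 had 11.6, 11.4 and 10.8 CPM in KO libraries, against 9.04, 7.18 and 7.56 CPM in control libraries (0.51 ± 0.11). Ears2, for mitochondrial glutamate, had 25.8, 21.5 and 22.2 CPM in KO libraries, against 18.3, 15.4 and 18.3 CPM in control libraries (0.42 ± 0.11). Both mitochondrial genes were higher in each KO library than in any control library. Among cytosolic members Tars had 176, 166 and 169 CPM in KO libraries, against 132, 130 and 128 CPM in control libraries (0.39 ± 0.08). Iars had 265, 237 and 245 CPM in KO libraries, against 204, 208 and 193 CPM in control libraries (0.31 ± 0.07). Qars, Aars, Cars, Iars2 and Dars rose by 0.15 to 0.26. The call of Dars, at 0.15 ± 0.06, was lost on leaving out any 1 of the 6 libraries (0.13 to 0.17).

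The 4 members that fell at day 2 did so by little. Yars2 had 27.8, 26.8 and 28.5 CPM in KO libraries, against 36.6, 31.7 and 36.1 CPM in control libraries (-0.33 ± 0.10, edgeR adjusted p = 0.0164). Vars had 234, 236 and 233 CPM in KO libraries, against 287, 292 and 274 CPM in control libraries (-0.28 ± 0.05, edgeR adjusted p = 0.000707). Kars had 408, 422 and 401 CPM in KO libraries, against 466, 501 and 461 CPM in control libraries (-0.21 ± 0.06). Vars was the steadiest of these, and its call held on leaving out each library. Farsa, at -0.16 ± 0.06, lost its call on leaving out any 1 of the 6 libraries (-0.18 to -0.14). Yars2 lost it without control replicate 1 or 3 or KO replicate 2 (-0.30 to -0.29), and Kars without control replicate 2 (-0.18).

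**Figure D3:**
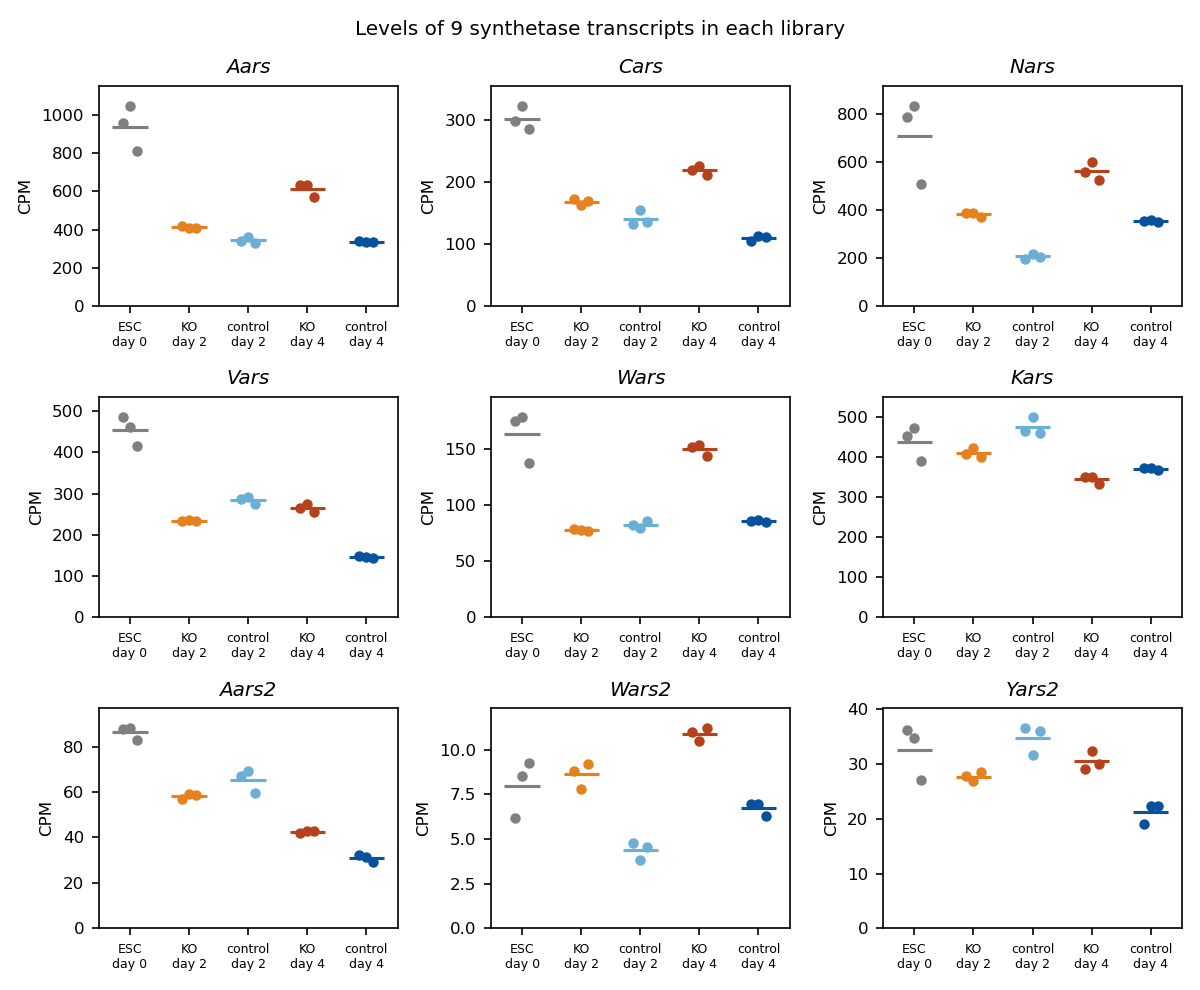
CPM of 9 members in each library (points, replicates 1 to 3 from left to right) with the group mean (line), n = 3 per group, each axis starting at 0. Aars, Cars and Nars are above control in all KO libraries of both days, Vars and Wars are below control at day 2 (Wars without passing the test) and above it at day 4, and Aars2 is above control in all KO libraries of day 4.

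The KO effect differed between the days for 19 members. The difference, day 4 minus day 2, was positive for 14 and negative for 5, where 18.6% and 17.6% of all tested genes passed in those directions. Of the 14, 7 were on the ATF4 list, with Vars at 1.13 ± 0.08, Wars at 0.88 ± 0.11, Yars at 0.79 ± 0.08 and Cars at 0.75 ± 0.09. Vars turned over, being lower in KO cells at day 2 and higher at day 4. So did Yars2, with a difference of 0.85 ± 0.15. The calls of Dars, Mars2, Nars2, Sars2 and Farsa for a difference between days, all within 0.43 either way, were lost on leaving out some single libraries. These were 10 of the 12 libraries for Dars (-0.24 to -0.20), 9 for Mars2 (-0.43 to -0.36), 6 for Sars2 (0.31 to 0.40) and 5 for Nars2 (0.37 to 0.41), and for Farsa control replicate 1 of day 4 (0.23). For Nars, Lars, Tars, Iars and Sars of the ATF4 list the difference between days did not pass. Nars and Lars, at -0.23 and -0.32, lie on chromosome 18, where the median difference was -0.59. The part of the chromosome in their differences was not tested.

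In control cells most cytosolic synthetases stood lower at day 2 than in ESCs. As given above, the day and the source of the cells cannot be told apart in any comparison with day 0. From day 0 to day 2, 18 of 19 cytosolic members fell and 0 rose, with a median log2 fold change of -0.99, where 34.9% of all tested genes fell and 35.6% rose. All 12 members of the ATF4 list fell (median -1.16), and of the other 7 cytosolic members 6 fell (median -0.33). Kars did not pass (0.11 ± 0.06). Nars fell most, to 198, 219 and 206 CPM in control libraries of day 2, against 788, 833 and 510 CPM in ESC libraries (-1.77 ± 0.12, edgeR adjusted p = 2.62e-09). Sars fell to 118, 127 and 120 CPM, against 395, 403 and 228 CPM in ESC libraries (-1.49 ± 0.14). Aars fell to 342, 364 and 328 CPM, against 957.5, 1045 and 812 CPM in ESC libraries (-1.44 ± 0.07). ESC replicate 3 was the lowest ESC library for all 3 genes, as it was for collagen, and stayed above every library of day 2. Mitochondrial members moved less evenly, with 10 fallen and 3 risen (median -0.31). Farsb and Hars2, which overlapped between groups, lost their calls without ESC replicate 1 or without ESC replicate 2 (Farsb -0.21 to -0.18), and Hars2 also without any 1 of the control libraries of day 2 (-0.21 to -0.13).

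At day 4 most cytosolic members were still below the ESC level in control cells. Against day 0, 22 of 36 members fell and 6 rose at day 4, where 35.6% of all tested genes fell and 36.2% rose. Of the cytosolic members 15 fell and 2 rose (median -0.85), and of the mitochondrial members 7 fell and 4 rose (median -0.24). The 12 members of the ATF4 list fell again (median -1.13). Mars fell most, to 105, 106 and 102 CPM in control libraries of day 4, against 362, 355 and 295 CPM in ESC libraries (-1.69 ± 0.08, edgeR adjusted p = 1.32e-11). Vars fell to 149, 147 and 144 CPM, against 486, 461 and 416 CPM in ESC libraries (-1.63 ± 0.06). For both genes the highest control library of day 4 was far below the lowest ESC library. Aars (-1.48 ± 0.07), Cars (-1.46 ± 0.07), Yars (-1.28 ± 0.06), Sars (-1.26 ± 0.14) and Nars (-0.998 ± 0.12) followed. Nars lies on chromosome 18, whose median in this comparison was 0.33.

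Mitochondrial members were among the strong falls of day 4. Aars2 fell to 32.5, 31.4 and 29.1 CPM in control libraries of day 4, against 87.7, 88.2 and 82.9 CPM in ESC libraries (-1.48 ± 0.07, edgeR adjusted p = 1.03e-11), beside -1.48 ± 0.07 for its cytosolic counterpart. Vars2 fell to 41.3, 38.2 and 36.4 CPM, against 90.4, 100 and 97.0 CPM in ESC libraries (-1.31 ± 0.06). Sars2 fell to 28.0, 28.8 and 23.7 CPM, against 56.8, 53.1 and 53.8 CPM in ESC libraries (-1.03 ± 0.10). All 3 groups of libraries were tight and far apart. Iars2, for mitochondrial isoleucine, rose to 149, 148 and 142 CPM, against 108, 96.5 and 106 CPM in ESC libraries (0.50 ± 0.05, edgeR adjusted p = 1.67e-07). Of its exon length 22.9% overlaps Rab3gap2 on the opposite strand, so its counts are uncertain. Rars2 (0.37 ± 0.06), Mars2 (0.31 ± 0.11), Farsb (0.23 ± 0.09) and Dars (0.13 ± 0.06) rose by less. Without ESC replicate 3 the calls of Farsb (0.10) and Dars (0.07) were lost. The call of Farsb was also lost without control replicate 1 or 2 of day 4 and that of Dars without control replicate 2 or 3, with all values at or below 0.23.

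Transcripts listed as fibroblast markers moved too, and not all one way. The 12 fibroblast markers summed to between 2261 and 3938 CPM in ESC libraries, 2223 to 2501 in KO and 1977 to 2142 in control libraries of day 2, and 1665 to 1719 in KO and 918.5 to 1028 in control libraries of day 4, and 0 of the 12 were at 0 in any library. Fn1, the fibronectin gene, made up most of these sums, with means of 2087 CPM in ESCs, 1642 in KO and 1700 in control cells of day 2, and 1486 in KO and 872 in control cells of day 4. Over the ESC libraries Fn1 stayed between 1998 and 2145 CPM while Col1a1 ran from 88.2 to 507 CPM. The sums are therefore not a measure of feeder cells alone. In control cells of day 2 against day 0, 3 of the 12 markers rose and 6 fell, where 35.6% of all tested genes rose and 34.9% fell. At day 4 against day 0, 2 rose and 8 fell, where 36.2% rose and 35.6% fell. The 3 that rose at day 2 were Acta2, Tagln and Thy1, and Tagln and Thy1 were up at day 4 as well. In KO against control cells 5 of 12 rose and 0 fell at day 2, and 4 rose and 0 fell at day 4, beside 20.4% of all tested genes risen at day 2 and 19.5% at day 4. With the mean log2 level of 3 collagen genes as a covariate, 12 of 12 ATF4-list members still rose in KO cells of day 4 (median 0.53 in place of 0.75). At day 2 the covariate gave 5 risen and 2 fallen in KO cells in place of 6 and 1, and the median of the list became 0.08 in place of 0.26. In control cells of day 4 against day 0 the same covariate left 6 of the 12 falls (median -0.38 in place of -1.13), while at day 2 against day 0 it left 12 of 12 (median -1.01).

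Between day 2 and day 4 the control cells split evenly, with 15 members risen and 15 fallen, where 33.9% of all tested genes rose and 34.6% fell. In KO cells, later against earlier, 19 rose and 9 fell, where 31.2% rose and 32% fell. On the ATF4 list 11 of 12 rose and 0 fell from day 2 to day 4 in KO cells (median 0.56), and 4 rose and 4 fell in control cells (median 0.14). The 2 comparisons have no library in common, and their difference is the difference between days given above.

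The summed level shows the size of these changes. The 12 ATF4-list members together came to 5407 ± 824 CPM in ESCs (SD, n = 3), 2901 ± 40.2 CPM in KO and 2342 ± 85.2 CPM in control cells of day 2, and 4122 ± 185 CPM in KO and 2591 ± 52.0 CPM in control cells of day 4. Each KO library of either day was above each control library of its day, and all stood below the lowest ESC library, replicate 3, at 4464 CPM. The other 7 cytosolic members summed to 1542 ± 162 CPM in ESCs, 1279 ± 31.6 CPM in KO and 1281 ± 25.4 CPM in control cells of day 2, and 1271 ± 16.5 CPM in KO and 1319 ± 22.1 CPM in control cells of day 4. The 17 mitochondrial members summed to 925 ± 40.2 CPM in ESCs, 1075 ± 122 CPM in KO and 1172 ± 147 CPM in control cells of day 2, and 845.5 ± 44.3 CPM in KO and 787 ± 42.9 CPM in control cells of day 4. The sums of the other cytosolic members overlapped at day 2, and at day 4 they ran from 1254 to 1287 CPM in KO libraries, below the 1304 to 1344 CPM of control libraries. The mitochondrial sums of KO and control libraries overlapped on both days with Lars2 included. Without Lars2 they ran from 674 to 682.5 CPM in KO and 634 to 648 CPM in control libraries of day 2. At day 4 they ran from 667 to 677 CPM in KO and 617 to 642 CPM in control libraries. Their means without Lars2 were 750 CPM in ESCs and 640 CPM in control cells of day 2.

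**Figure D4:**
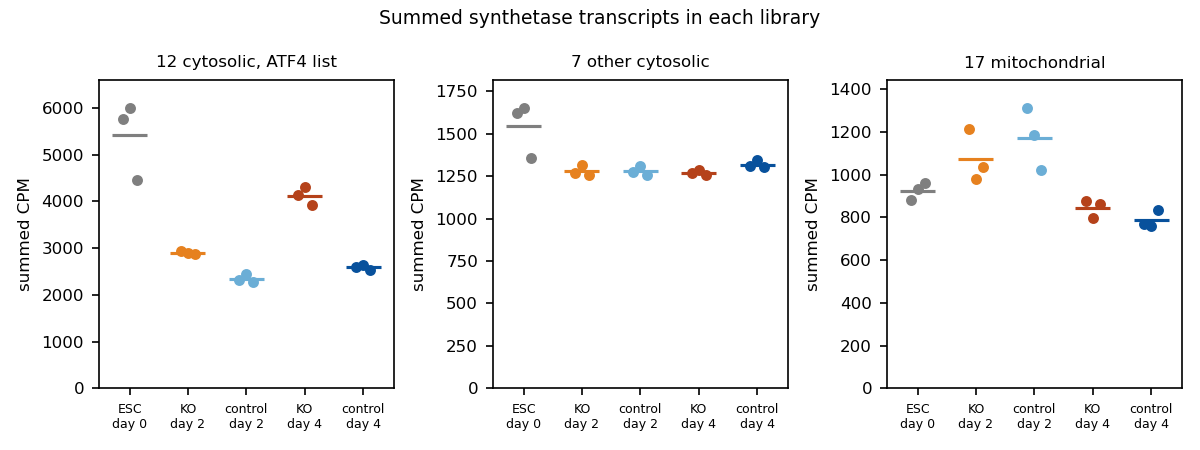
Summed CPM of the 12 ATF4-list members, the 7 other cytosolic members and the 17 mitochondrial members in each library (points) with the group mean (line), each axis starting at 0. The ATF4-list sum in KO libraries of day 4 runs from 3930 to 4298 CPM, above the 2536 to 2639 CPM of control libraries of day 4, while the sums of the other cytosolic members lie between 1254 and 1344 CPM in all libraries after day 0.

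Lars2 was the most abundant mitochondrial member by CPM in every library of days 0 and 2, and varied within groups. It had 117, 169 and 240 CPM in ESC libraries, 530, 303 and 361 CPM in KO and 664, 548 and 386 CPM in control libraries of day 2, and 204, 118 and 195 CPM in KO and 137, 117 and 219 CPM in control libraries of day 4. It rose in control cells of day 2 against day 0 (1.60 ± 0.29, edgeR adjusted p = 0.000137) and passed in neither KO comparison. Rn45s, the ribosomal RNA precursor, moved with it. Rn45s had 1543, 2262 and 2786 CPM in ESC libraries, 8441, 5204 and 6539 CPM in KO and 9920, 7110 and 5942 CPM in control libraries of day 2, and 1794, 1402 and 1581 CPM in KO and 1173, 1168 and 1563 CPM in control libraries of day 4. In each group the library with the most Lars2 also had the most Rn45s, and the part of ribosomal RNA in the Lars2 values was not tested. Without Lars2, cytosolic over mitochondrial summed CPM was 9.25 ± 1.02 in ESCs, 6.17 ± 0.06 in KO and 5.66 ± 0.19 in control cells of day 2, and 8.01 ± 0.24 in KO and 6.21 ± 0.01 in control cells of day 4.

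**Figure D5:**
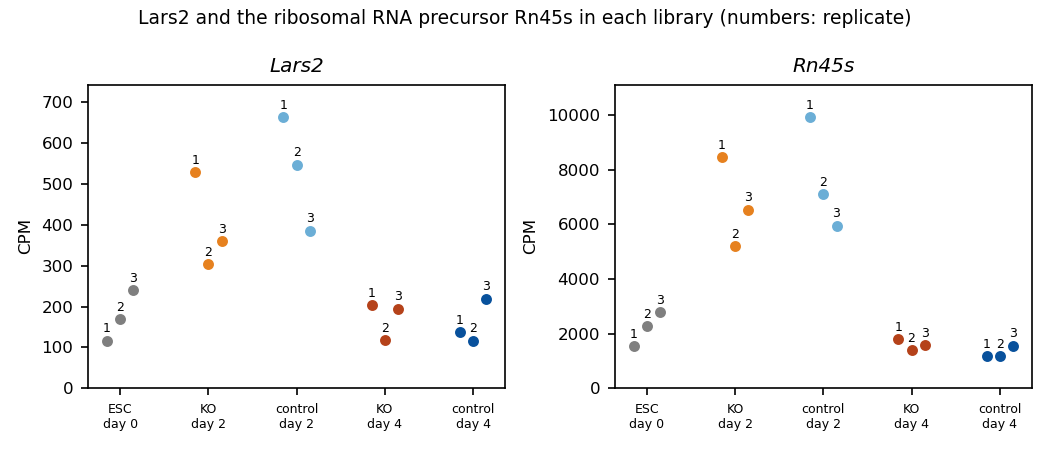
CPM of Lars2 (left) and of the ribosomal RNA precursor Rn45s (right) in each library, with the replicate number beside each point and axes starting at 0. Both are highest in the libraries of day 2, and control replicate 1 of day 2 holds the highest value of each, 664 and 9920 CPM.

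For 14 amino acids the rule holds 1 gene in each class, and the 2 genes of a pair did not always move together. Tarsl2, a further threonyl-tRNA synthetase gene with a symbol outside the rule, was not paired and is counted below among other charging genes. In KO against control cells 0 of 14 pairs passed in opposite directions on either day, while 3 pairs passed in the same direction at day 2 and 6 at day 4. Between days several pairs parted. From day 0 to day 2 in control cells Cars, Lars and Nars fell, while Cars2 (0.39 ± 0.07), Lars2 and Nars2 (0.39 ± 0.10) rose. Nars2 had 30.1, 30.8 and 31.4 CPM in control libraries of day 2, against 20.3, 27.4 and 22.9 CPM in ESC libraries. From day 2 to day 4 Mars fell (-0.46) while Mars2 rose (1.30), and Tars rose (0.54) while Tars2 fell (-0.37). Against day 0, Iars fell (-0.53) while Iars2 rose, and Mars fell while Mars2 rose. In KO cells, day 4 against day 2, the cytosolic Aars, Cars, Sars and Vars rose by 0.57, 0.38, 0.68 and 0.18 while Aars2, Cars2, Sars2 and Vars2 fell by 0.46, 0.50, 0.29 and 0.52. The call of Vars was lost without KO replicate 2 of day 4 (0.14) and that of Sars2 without KO replicate 3 of day 4 (-0.21).

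Enzymes of the multisynthetase complex were mixed at day 4. Of the 7 members in the complex, 3 rose in KO cells of day 4 (Iars, Lars and Mars) and 4 did not pass (Dars, Kars, Qars and Rars). Of the 12 cytosolic members outside it 9 rose, beside the 19.5% of all tested genes. Those that rose, in the complex or outside it, are the members of the ATF4 list, so this split is not a separate result. Eprs, which is in the complex and not on the ATF4 list, rose by 0.31 ± 0.07 at day 4 (edgeR adjusted p = 0.00133), with 659, 674 and 619 CPM in KO libraries against 532, 537 and 502 CPM in control libraries. The scaffold genes did not rise. Aimp2 fell by 0.22 on the log2 scale, and Aimp1 and Eef1e1 stood at -0.13 and -0.15 without passing.

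Other listed ATF4 pathway genes rose in KO cells, most of them at day 2 and all at day 4. Of 10 such genes 7 rose and 0 fell at day 2 (median 0.41, beside 20.4% of all tested genes risen), and 10 rose at day 4 (median 0.93, beside 19.5%). At day 2 Ddit3 and Phgdh stood at -0.47 and -0.21 without passing. Atf4 itself had 174, 173 and 172 CPM in KO libraries of day 2, against 93.7, 113 and 91.3 CPM in control libraries of day 2 (0.80 ± 0.12). At day 4 it had 258, 281 and 224 CPM in KO libraries, against 128, 141 and 151 CPM in control libraries (0.86 ± 0.12), and the difference between days did not pass (0.05 ± 0.17). Atf4 is regulated largely by translation, so its transcript is not a measure of the protein. Trib3, a pseudokinase gene induced by ATF4, rose by 1.88 ± 0.14 at day 4, Nupr1, a stress-induced chromatin protein gene, by 2.38 ± 0.18, and Chac1, a glutathione-degrading enzyme gene, by 2.51 ± 0.26. In control cells of day 2 against day 0, 8 of these 10 fell, where 34.9% of all tested genes fell. Atf4 fell by 2.40 on the log2 scale.

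Genes next to the synthetases in the pathway are given beside the share of all tested genes, 19.5% risen and 18.1% fallen at day 4, and 20.4% and 21.4% at day 2. Among 13 other charging genes 4 rose and 1 fell in KO cells of day 4. The risen ones include Eprs, given above with the complex, and Xpot, which is also among the listed ATF4 pathway genes above. Xpot, which exports tRNA from the nucleus, rose most, with 399, 422 and 394 CPM in KO libraries against 250, 264 and 257 CPM in control libraries (0.66 ± 0.07). Aarsd1, which hydrolyses mischarged alanyl-tRNA, rose by 0.32 ± 0.05, and Dtd2, a deacylase of mischarged tRNA, fell by 0.36. At day 2 Ptrh2 and Ptrhd1 rose and Tarsl2 fell in this list. Among 20 genes of mitochondrial translation 1 rose (Tsfm, an elongation factor, 0.33 ± 0.08) and 1 fell (Gtpbp3, a tRNA-modifying GTPase, -0.22 ± 0.06) at day 4. At day 2, 6 rose and 8 fell. The smallest p-values were those of Gfm1, Guf1 and Gtpbp3 among the falls (-0.42, -0.58 and -0.45) and of Trmt5, Taco1 and Mtif3 among the rises (0.49, 0.83 and 0.51). Among 6 cytosolic elongation factor genes 2 rose at day 4 (Eef1g by 0.25 and Eif5a by 0.27), and at day 2 Eef1a1 rose by 0.20 and Eif5a fell by 0.34.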

How the data were processed

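Raw counts for each gene symbol, in a table for every library, were used as deposited by the authors, from 15 polyadenylated RNA libraries that their titles place in 5 groups of 3. Per the submitters' processing notes the tools were STAR, featureCounts, StringTie and DESeq2, with mm10 and GRCm38; their versions, the annotation and the strandedness remain not given in the sources used here. No 2 libraries of a group agreed within sampling noise, so each was counted as 1 sample.

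The tests came from edgeR 4.0.16 (R 4.3.3). After filterByExpr (minimum count 10, minimum total 15) and TMM scaling, the quasi-likelihood model took a mean for each of the 5 groups over the 15 libraries. Adjustment was Benjamini-Hochberg over all 15696 tested genes, and calls were made below 0.05. Log2 fold changes carry ± standard errors. Levels are CPM on TMM-scaled library sizes, divided by kilobases of GENCODE M21 exon (GRCm38) wherever genes are compared with each other. The procedure was checked on simulated data.

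Members and lists were picked with earlier results of these data known, so lists carry no test, and their counts and medians stand beside those of all tested genes. Named members are up to 10 in each direction for KO against control of either day and for control day 4 against day 0, those with a difference between days, the highest and lowest of a class, and pairs called in opposite directions. Rn45s, Hprt, Ddit3 and any other member given with values were picked after seeing them.

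The alternatives were scaling by RLE or upper quartile, no filter, 10 CPM or more in 3 or more libraries, DESeq2 1.42.0, models of the compared groups alone, a block for replicate number, testing against 1.5-fold, dropping chromosome 18, and omitting each library. Added after seeing the data were a covariate of collagen level (mean log2 CPM of Col1a1, Col1a2 and Col3a1), omission of ESC replicate 3 together with KO day 2 replicate 2 (13 libraries), and sums without Lars2. A member counted in the totals is not reported here.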

Additional observations from a re-analysis of the deposited data

Results flagged for a closer look

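For the 18 members given here, of 19, the effect of Atg7 KO against control differed between day 4 and day 2 in a test of the difference itself (edgeR's quasi-likelihood test of the interaction, adjusted p under 0.05 over all tested genes). The differences, day 4 minus day 2 on the log2 scale, were largest for cytosolic Vars at 1.13, Wars at 0.88, Yars at 0.79, Cars at 0.75, Mars at 0.65 and Aars at 0.60. Gars followed at 0.50 and Farsa at 0.28. Among mitochondrial members they were 0.85 for Yars2, 0.62 for Aars2, 0.43 for Nars2, 0.40 for Sars2, and 0.33 for both Tars2 and Vars2. Negative differences were those of Mars2 at -0.42, Hars at -0.38, Iars2 at -0.34 and Dars at -0.23. Hars lies on chromosome 18, where the median difference over 408 genes was -0.59, and its part was not tested.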

How the results depend on the processing

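Of 36 members in 7 comparisons under each alternative, 4057 values kept their direction and side of the threshold, 262 calls were lost and 94 were gained. With a call in either fit 8 values changed sign, all 8 with the collagen score as covariate, and 51 values that passed in neither fit took the other sign. Of the 262 lost, 120 were lost in the test against 1.5-fold. The causes were not tested. In KO against control cells of day 4 the 19 members that rose became 5 against 1.5-fold and were 19 in each refit without 1 library. The 1 that fell became 2 with RLE or upper quartile scaling or with DESeq2, 3 with the filter of at least 10 CPM, with only the groups compared or with 13 libraries, 5 with the collagen score, and 0 against 1.5-fold, with the replicate block and without any 1 library. At day 2 the 15 that rose became 1 against 1.5-fold and 14 without any 1 library, and the 4 that fell became 7 with only the groups compared or the collagen score, 0 against 1.5-fold and 2 to 3 without 1 library. The 14 positive differences between days became 2 against 1.5-fold and 12 to 14 without 1 library. The 5 negative ones became 3 without a low-count filter, 9 with only the groups compared, 8 with 13 libraries, 1 against 1.5-fold and 3 to 5 without 1 library.

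In control cells of day 2 against day 0 the 3 that rose became 5 with the collagen score, 1 against 1.5-fold and 3 to 4 without 1 library, and the 28 that fell became 16 against 1.5-fold and 26 to 28 without 1 library. Farsb and Hars2 changed sign with the collagen score, to 0.032 and 0.0095. In day 4 against day 2 the 15 risen and 15 fallen became 3 and 5 against 1.5-fold. In day 4 against day 0 the 6 that rose became 0 against 1.5-fold, 3 with 13 libraries and 3 to 7 without 1 library, and the 22 that fell became 14 with the collagen score and 22 to 25 without 1 library. With the collagen score the median of the other 7 cytosolic members became 0.411, and Gars, Kars, Lars and Rars became 0.045, 0.107, 0.0609 and 0.6849. In KO cells of day 4 against day 2 the 19 that rose became 4 against 1.5-fold and 15 to 18 without 1 library, the 9 that fell became 1 against 1.5-fold and 8 to 9 without 1 library, and Hars and Lars became 0.2781 and 0.3687 with the collagen score.

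The ratio of cytosolic to mitochondrial summed CPM was 7.54 in ESCs, 3.92 in KO and 3.12 in control cells of day 2, and 6.40 in KO and 4.98 in control cells of day 4. Without Lars2 these became 9.25, 6.17, 5.66, 8.01 and 6.21. Without the members on chromosome 18 they became 3.18 in KO and 2.75 in control cells of day 2, and 5.38 in KO and 4.22 in control cells of day 4. Without 1 library they ran from 7.12 to 8.28, 3.73 to 4.14, 2.95 to 3.32, 6.08 to 6.59 and 4.84 to 5.17.

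Libraries with the same replicate number did not vary together, with correlations of their deviations between -0.05 and 0.057, so the numbers pair no samples. With the replicate block, KO against control cells of day 4 gave 0 fallen members in place of 1, and the counts of all 36 members in the other comparisons stayed within 1.5 times. Within classes, cytosolic members risen in control cells of day 4 against day 0 became 1 in place of 2, and of the other 7 cytosolic members 1 rose in KO cells of day 4 in place of 0. Mitochondrial members had the lowest counts, which limits the precision of Wars2, Mars2 and Pars2.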
